A study of Mus musculus with 12 samples.

Results

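The genes described here are 8 classical targets of the glucocorticoid receptor (GR): Fkbp5, Tsc22d3, Nfkbia, Dusp1, Errfi1, Sgk1, Map3k6 and Zbtb16. They were chosen by name, with earlier results of these data known, so their counts beside those of all genes are descriptions. Each was read from its only probe set that carries exactly 1 gene symbol. All 8 of 8 were measured, among 19938 genes in all. Renal cortex RNA of mice was amplified and hybridised to 12 Affymetrix gene arrays, 3 in each of 4 groups. Control mice were nr3c1 flox/flox, with floxed alleles of the receptor gene Nr3c1 and no Cre. GR-deficient mice were Pax8-Cre;nr3c1 flox/flox, so the floxed alleles are shared by every group and a genotype difference includes any effect of Pax8-Cre itself. Pax8-Cre acts in tubular epithelium, and other cells of the cortex keep the receptor. Mice of each genotype were either healthy and not injected, or taken 24 hours after glycerol was injected into muscle. Glycerol breaks down muscle and releases myoglobin, which injures the tubule (acute kidney injury, AKI). The healthy mice were a separate cohort, so a difference between AKI and healthy mice includes any effect of cohort or of the injection itself. Below, a rise or fall with AKI is short for this difference. The ages of the mice were not given in the sources used here. The labels give replicate numbers but not whether replicates came from different animals. The p-values therefore describe sample-to-sample spread, part of which could be technical.

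Glucocorticoids enter the cell and bind GR, which HSP90 and its co-chaperones hold ready in the cytoplasm. The loaded receptor moves to the nucleus, binds a palindromic DNA element as a dimer and raises a set of genes found in many tissues, several of which then restrain inflammation and stress kinases or the receptor itself. In the kidney the same hormones act on tubular sodium handling and on glucose production. Most of these targets also answer to other signals, such as stress kinases, cyclic AMP or NF-κB, so their level is not a readout of GR alone.

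The start-site sequences of 4 targets that hold a searched motif are printed here. Windows of 300 bases, from 250 before to 50 after an annotated start site, were held in the RefSeq table (build GRCm38.p6) for 7 of the 8 genes, 15 windows in all. Zbtb16 had no entry. Each was searched on both strands for the full GR element (the arm AGAACA, any 3 bases, then its reverse complement TGTTCT), for 1 arm of it (AGAACA, which is also part of the full element), for the NF-κB consensus, for the cyclic AMP response element TGACGTCA and for the AP-1 site TGANTCA. Capitals mark every match. Sgk1 (plus strand, chr10:21993640-21993939) is shown for the full GR element, Nfkbia (minus strand, chr12:55492598-55492897) for the NF-κB match, and Dusp1 (minus strand, chr17:26508423-26508722) and Errfi1 (plus strand, chr4:150854820-150855119) for the cyclic AMP element.
Sgk1: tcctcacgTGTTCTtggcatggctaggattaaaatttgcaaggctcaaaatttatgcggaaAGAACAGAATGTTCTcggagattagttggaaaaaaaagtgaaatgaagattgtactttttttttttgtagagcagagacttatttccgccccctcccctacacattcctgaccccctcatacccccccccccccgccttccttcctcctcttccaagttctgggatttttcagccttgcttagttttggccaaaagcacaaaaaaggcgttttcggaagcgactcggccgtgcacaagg
Nfkbia: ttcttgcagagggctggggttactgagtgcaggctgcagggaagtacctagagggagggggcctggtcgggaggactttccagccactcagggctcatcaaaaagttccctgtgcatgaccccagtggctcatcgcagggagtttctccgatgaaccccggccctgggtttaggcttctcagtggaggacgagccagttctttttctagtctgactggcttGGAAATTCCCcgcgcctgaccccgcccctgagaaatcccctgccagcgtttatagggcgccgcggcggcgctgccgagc
Dusp1: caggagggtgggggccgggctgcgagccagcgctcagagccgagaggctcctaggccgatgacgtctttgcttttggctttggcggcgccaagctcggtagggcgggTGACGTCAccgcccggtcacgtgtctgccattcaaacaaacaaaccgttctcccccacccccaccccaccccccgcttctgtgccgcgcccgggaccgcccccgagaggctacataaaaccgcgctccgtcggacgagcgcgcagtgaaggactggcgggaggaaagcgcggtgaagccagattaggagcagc
Errfi1: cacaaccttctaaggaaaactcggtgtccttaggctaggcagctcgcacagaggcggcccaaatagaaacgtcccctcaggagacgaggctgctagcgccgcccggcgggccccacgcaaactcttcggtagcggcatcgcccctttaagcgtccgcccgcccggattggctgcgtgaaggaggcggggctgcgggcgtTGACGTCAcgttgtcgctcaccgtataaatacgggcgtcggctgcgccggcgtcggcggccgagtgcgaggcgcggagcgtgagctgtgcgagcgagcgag
Of 6 Sgk1 windows, 1 held the full element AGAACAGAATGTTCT, from -189 to -175 relative to its start site, and it is the window printed here. Such a match was found in 3 of all 32851 windows (0.00913%). The printed window also held a further single arm from -242 to -237. The single arm alone occurred in 19% of all windows. It was also present in 2 other Sgk1 windows and in 1 of 3 Tsc22d3 windows. The NF-κB consensus (4.51% of all windows) matched Nfkbia from -29 to -20 (GGAAATTCCC), beside the start site. The cyclic AMP element (1.79% of all windows) matched Dusp1 from -143 to -136 and 1 of 2 Errfi1 windows from -51 to -44. None of the motifs searched matched in the windows of Fkbp5 and Map3k6, and the AP-1 site (7.81% of all windows) matched in none of the 15. A match is a description of the letters, and receptor sites can lie far outside such a window, as they do in the introns of Fkbp5.

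Array medians were at most 7.09 on the log2 scale. A pair of arrays stood apart: in control AKI replicate 1 the genes varied least (SD over genes 1.88, where the other 11 arrays had 1.96 to 2.06), and it lay outermost on the second principal component, and GR-deficient healthy replicate 1 lay outermost on the third. Nr3c1 was lower in GR-deficient than in control cortex in both conditions, with group means of 9.55 ± 0.091 (SD, n = 3) in healthy control, 8.86 ± 0.037 in control AKI, 8.17 ± 0.037 in healthy GR-deficient and 7.98 ± 0.12 in GR-deficient AKI cortex. Whether its probe set lies in the floxed part of the gene is not known, so the signal left in GR-deficient mice cannot be read as remaining intact transcript. Nr3c1 fell with AKI in control mice as well, so the receptor transcript itself differed between these conditions. Levels of different probe sets on an array cannot be compared, so the labelled tissue was not tested against markers.

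**Figure D1:**
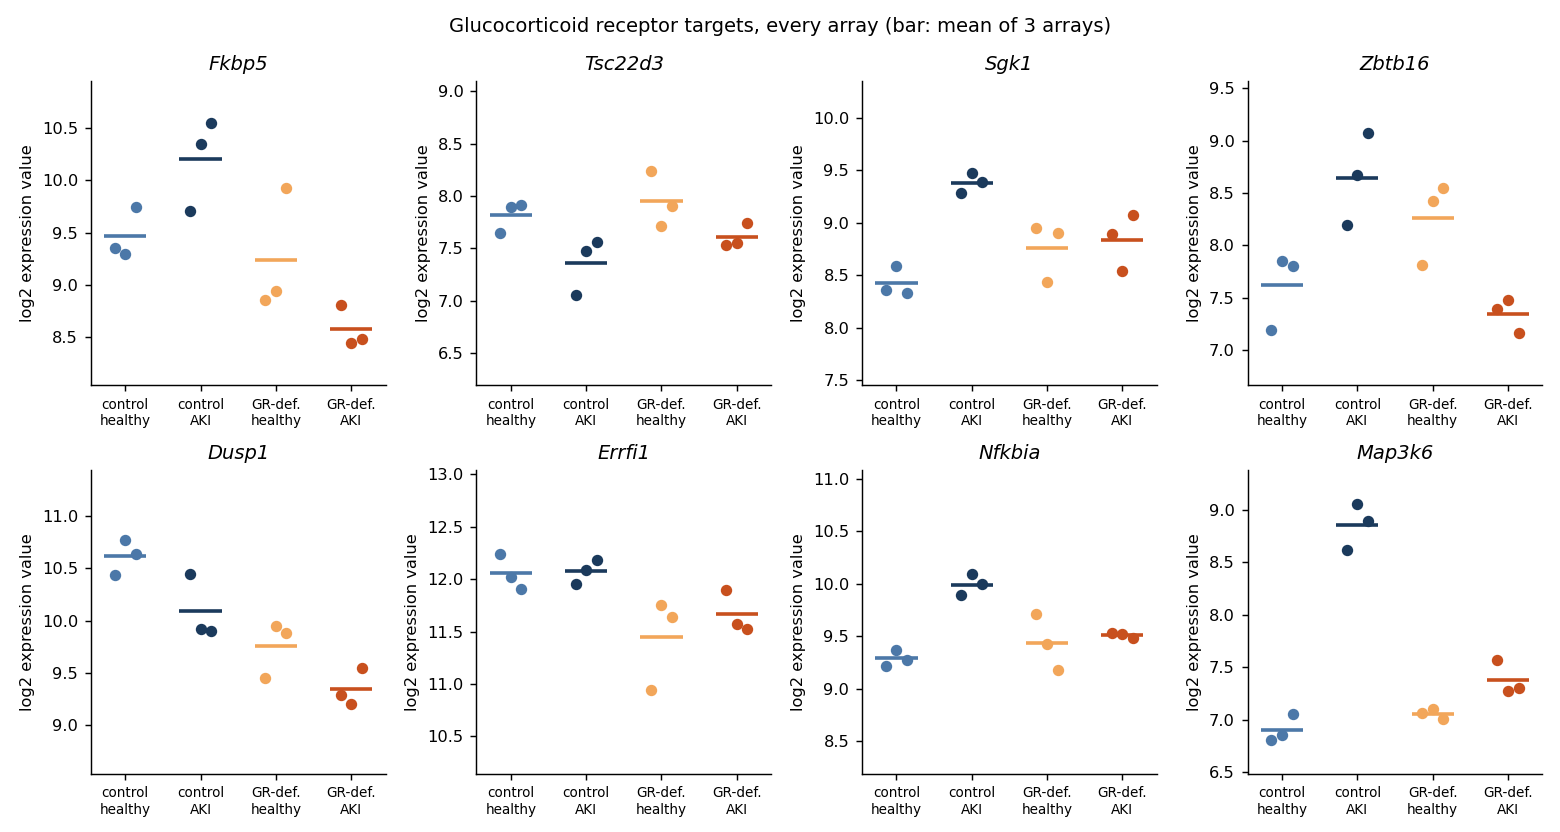
Log2 expression value (vertical axis, the same span in every panel) of the 8 targets on each of the 12 arrays, by group. Points are arrays and bars are means of 3. Map3k6 in control AKI cortex (8.62 to 9.06) lies above all other arrays, and GR-deficient AKI is the lowest group for Fkbp5, Zbtb16 and Dusp1.

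The first question was how the targets responded to AKI in mice with an intact receptor. Of the 8 genes, 5 rose (Map3k6, Zbtb16, Sgk1, Fkbp5 and Nfkbia) and 2 fell (Tsc22d3 and Dusp1), while Errfi1 did not pass. The increases ran from 0.70 for Nfkbia to 1.95 for Map3k6 on the log2 scale, a 3.87-fold rise. Tests are from limma on all 12 arrays with Benjamini-Hochberg adjustment over 19938 genes, and a gene is called where the adjusted p is below 0.05. In this comparison 28.7% of all genes were called, 13.6% higher and 15.1% lower. The median difference of the 8 genes was 0.72, and that of all genes 0.0013. The 3 arrays of each group did not overlap for 5 of the 8, as for 39.6% of all genes. In bulk cortex a change in the number of cells of a type and a change in RNA per cell cannot be told apart.

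The same step was then taken in GR-deficient mice. There 1 of the 8 genes was called, Zbtb16, and it fell by 0.91 ± 0.23 (SE, adjusted p = 0.0396). The other 7 had differences from -0.66 (Fkbp5) to 0.33 (Map3k6). Of all genes 4.64% were called, 3.29% as higher and 1.35% as lower. The groups did not overlap for 3 of the 8 targets (Fkbp5 and Zbtb16 lower, Map3k6 higher), as for 25.3% of all genes. The median of the 8 genes was -0.14, beside -0.026 over all genes. The Zbtb16 call passed in 1 of 6 fits without 1 array, with values from -1.14 to -0.77: it held without GR-deficient healthy replicate 1 and was lost without GR-deficient healthy replicate 2 or 3 or any GR-deficient AKI array (adjusted p up to 0.136). It was also lost after centring arrays on their median (adjusted p = 0.0594).

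**Figure D2:**
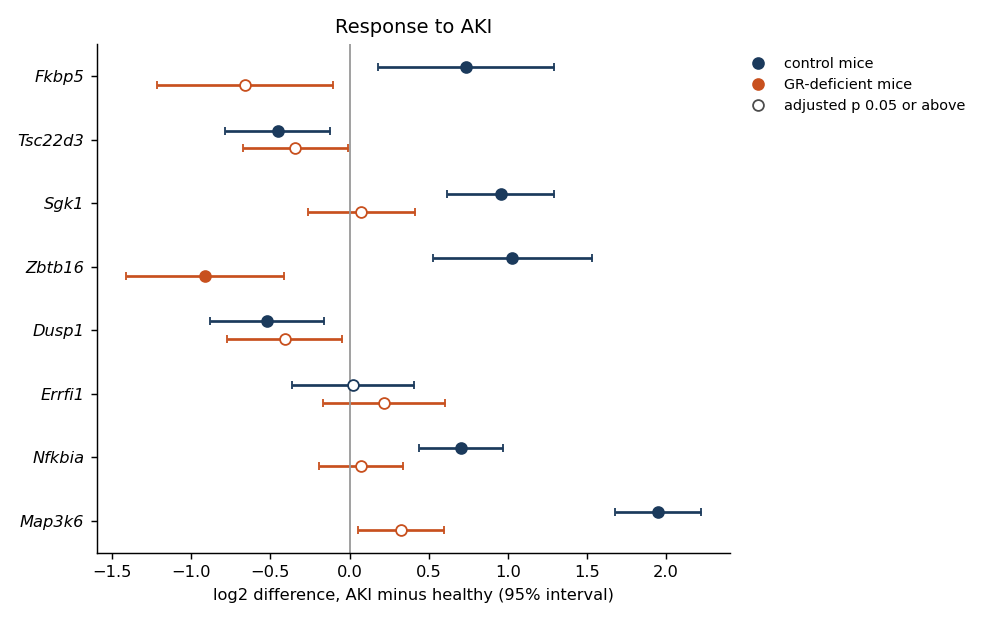
Log2 difference between AKI and healthy cortex for each target (horizontal axis, with 95% intervals from the limma fit) in control and GR-deficient mice, 3 arrays a group. Filled points have an adjusted p below 0.05: 7 of 8 in control mice and 1 of 8, Zbtb16, in GR-deficient mice.

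Whether the AKI response differed between genotypes was tested as the interaction, the response of GR-deficient mice minus that of control mice. It was negative for the 5 genes that rose in control mice and passed for each of them. The sizes were -1.94 ± 0.33 for Zbtb16 (SE, adjusted p = 0.00165), -1.63 ± 0.18 for Map3k6 (0.000104), -1.40 ± 0.37 for Fkbp5 (0.023), -0.88 ± 0.22 for Sgk1 (0.0185) and -0.63 ± 0.17 for Nfkbia (0.0291). Of all genes 11.5% passed this test and 4.06% passed it on the negative side. For Tsc22d3 (0.11, 95% interval -0.36 to 0.58), Dusp1 (0.11, -0.40 to 0.62) and Errfi1 (0.20, -0.35 to 0.74) no difference between the genotypes' responses was detectable, and the intervals leave room for one. The calls of Zbtb16 and Map3k6 passed in 12 of 12 fits without 1 array. Those of Fkbp5, Sgk1 and Nfkbia passed in 7, 8 and 5 of 12, and the arrays on which they turned are named with each gene.

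The effect of losing tubular GR was next read within each condition. In AKI, 6 of the 8 targets were lower in GR-deficient than in control cortex: Fkbp5, Map3k6, Zbtb16, Dusp1, Sgk1 and Nfkbia. The differences ran from -0.48 for Nfkbia to -1.62 for Fkbp5, a 3.08-fold lower level. Of all genes 17.4% were called in this comparison, 7.34% as lower. For 7 of the 8 targets every GR-deficient array lay below every control array, and groups were apart in either direction for 32.8% of all genes. The median difference was -0.64 for the 8 genes and -0.043 for all genes. This comparison shares the control AKI arrays with the response in control mice, and with the interaction, so the 3 results are not independent.

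In healthy cortex 0 of the 8 targets were called by limma, and 3 (Dusp1, Errfi1 and Zbtb16) had an unadjusted p below 0.05. Few genes of any kind passed there, 0.145% of all, 0.0351% as higher and 0.11% as lower. Dusp1 came closest (-0.85 ± 0.17, adjusted p = 0.0644), followed by Errfi1 (-0.61 ± 0.18, 0.233), and these were the 2 genes whose groups did not overlap, as 18.6% of all genes did. Zbtb16 was at 0.64 ± 0.23 (adjusted p = 0.343), on the opposite side. The intervals were wide: that of Fkbp5 reached from -0.78 to 0.33 and that of Tsc22d3 from -0.20 to 0.47. Averaged over both conditions with equal weight, 4 targets were called as lower in GR-deficient cortex: Fkbp5 (-0.92), Dusp1 (-0.79), Map3k6 (-0.66) and Errfi1 (-0.51). Of all genes 8.46% were called, 4.54% as higher and 3.92% as lower. The averages of Map3k6 and Fkbp5 come mainly from AKI. For Map3k6 the difference was 0.15 in healthy cortex (limma adjusted p = 0.738) and -1.48 in AKI. For Fkbp5 it was -0.22 (0.83) and -1.62.

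**Figure D3:**
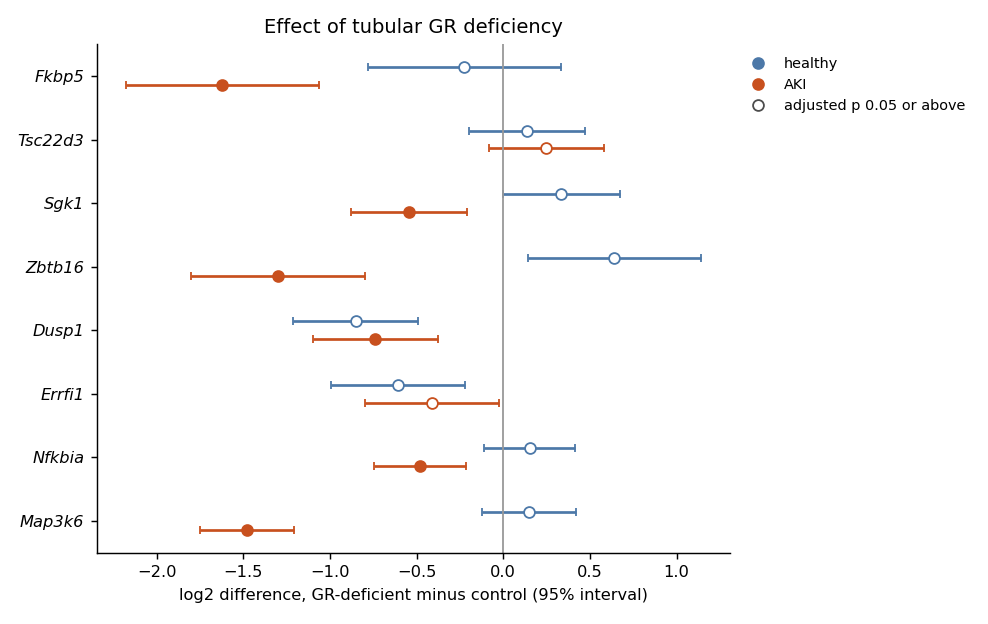
Log2 difference between GR-deficient and control cortex for each target (horizontal axis, with 95% intervals), in healthy mice and in AKI, 3 arrays a group. Filled points have an adjusted p below 0.05: 6 of 8 in AKI, all negative, and 0 of 8 in healthy mice.

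By role, Fkbp5 comes first because it acts on the receptor itself. It encodes an HSP90 co-chaperone that lowers the receptor's affinity for hormone and so closes a feedback loop. On the log2 scale it read 9.35, 9.30 and 9.74 in healthy control, 9.71, 10.34 and 10.55 in control AKI, 8.86, 8.94 and 9.93 in healthy GR-deficient and 8.80, 8.44 and 8.49 in GR-deficient AKI cortex. All 3 GR-deficient AKI arrays lay below the other 9, and GR-deficient healthy replicate 3 was the highest GR-deficient array. The order of means was control AKI (10.20), healthy control (9.46), healthy GR-deficient (9.24) and GR-deficient AKI (8.58), and only the last step separated neighbours without overlap. AKI raised Fkbp5 in control mice by 0.74 ± 0.26 (adjusted p = 0.0466), and the value in GR-deficient mice was -0.66 ± 0.26 (adjusted p = 0.184). The genotype difference in AKI was -1.62 ± 0.26 (adjusted p = 0.000539) and passed without any 1 array.

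The increase of Fkbp5 in control mice rests on single arrays. It was lost without healthy control replicate 1 or 2 or control AKI replicate 2 or 3 (0.56 to 0.98 over the 6 fits, adjusted p up to 0.171), and after centring arrays on their median (adjusted p = 0.0593). The interaction was lost without healthy control replicate 1 or 2, control AKI replicate 2 or GR-deficient AKI replicate 2 or 3 (-1.64 to -1.05 over 12 fits, adjusted p up to 0.0599).

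A second group of targets restrains inflammatory and growth signalling. Nfkbia encodes the inhibitor that holds NF-κB in the cytoplasm, and NF-κB induces it in turn. Its values were 9.22, 9.37 and 9.27 in healthy control, 9.89, 10.10 and 9.99 in control AKI, 9.71, 9.43 and 9.18 in healthy GR-deficient and 9.53, 9.52 and 9.48 in GR-deficient AKI cortex. The control AKI arrays were the highest 3 of 12, whereas both GR-deficient groups overlapped each other and the healthy control group overlapped the healthy GR-deficient one. AKI raised it by 0.70 ± 0.12 in control mice (adjusted p = 0.000458), and the value in GR-deficient mice was 0.071 ± 0.12 (adjusted p = 0.815). In AKI the genotype difference was -0.48 ± 0.12 (adjusted p = 0.0135), lost without control AKI replicate 2 or GR-deficient AKI replicate 3 (-0.53 to -0.43, adjusted p up to 0.0628). The interaction was lost without healthy control replicate 1 or 3, control AKI replicate 2, GR-deficient healthy replicate 2 or any GR-deficient AKI array (-0.76 to -0.50, adjusted p up to 0.0805), and after centring arrays on their median (adjusted p = 0.0697).

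Tsc22d3 encodes GILZ, a leucine zipper protein that binds NF-κB and AP-1 subunits and carries part of the anti-inflammatory action of glucocorticoids. It read 7.65, 7.89 and 7.91 in healthy control, 7.05, 7.47 and 7.56 in control AKI, 8.24, 7.71 and 7.91 in healthy GR-deficient and 7.54, 7.55 and 7.74 in GR-deficient AKI cortex. Each neighbouring pair of groups overlapped in the order healthy GR-deficient, healthy control, GR-deficient AKI and control AKI. It fell by 0.45 ± 0.16 with AKI in control mice (adjusted p = 0.0401), and the value in GR-deficient mice was -0.34 ± 0.16 (adjusted p = 0.257). Genotype differences were 0.14 ± 0.16 in healthy mice and 0.25 ± 0.16 in AKI (adjusted p = 0.828 and 0.337). The decrease was lost without healthy control replicate 2 or 3 or control AKI replicate 1 or 2 (-0.56 to -0.30, adjusted p up to 0.143). It was also lost after centring arrays on their median, with the replicate number as a block, in a fit of the compared groups alone (adjusted p up to 0.0635 over these) and without both arrays that stood apart (0.058). It is smallest without control AKI replicate 1, the array that stood apart and holds the lowest Tsc22d3 value.

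Dusp1 encodes a phosphatase that switches off stress-activated MAP kinases. Its values were 10.43, 10.77 and 10.63 in healthy control, 10.45, 9.92 and 9.90 in control AKI, 9.45, 9.95 and 9.88 in healthy GR-deficient and 9.29, 9.21 and 9.55 in GR-deficient AKI cortex. Every GR-deficient array lay below every control array of the same condition. Control AKI replicate 1 was within the range of the healthy control arrays, and the other 2 arrays of its group were lower. The genotype difference was -0.74 ± 0.17 in AKI (adjusted p = 0.00659) and -0.79 ± 0.12 as the average over both conditions (adjusted p = 0.000978), and each passed without any 1 array. AKI lowered Dusp1 in control mice (-0.52 ± 0.17, adjusted p = 0.03), and the value in GR-deficient mice was -0.41 ± 0.17 (adjusted p = 0.206). The call in control mice was lost without healthy control replicate 2 or 3 or control AKI replicate 2 or 3 (-0.70 to -0.43, adjusted p up to 0.122), and under quantile normalization (adjusted p = 0.0636).

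Errfi1 encodes a cytoplasmic inhibitor of the EGF receptor kinase. It read 12.24, 12.02 and 11.90 in healthy control, 11.96, 12.09 and 12.19 in control AKI, 10.95, 11.75 and 11.64 in healthy GR-deficient and 11.89, 11.57 and 11.53 in GR-deficient AKI cortex. All 6 GR-deficient arrays lay below all 6 control arrays, the closest being GR-deficient AKI replicate 1 (11.89) and healthy control replicate 3 (11.90). The share of all genes with such a split was not counted. GR-deficient healthy replicate 1, the other array that stood apart, held the lowest value. The average genotype difference was -0.51 ± 0.13 (adjusted p = 0.0224), lost without healthy control replicate 1 or GR-deficient AKI replicate 2 or 3 (-0.59 to -0.39, adjusted p up to 0.0639). No AKI effect was detectable in control mice (0.022, 95% interval -0.37 to 0.41) or in GR-deficient mice (0.22, -0.17 to 0.61).

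The kinases among the targets are Sgk1 and Map3k6. Sgk1 promotes sodium uptake in the distal nephron by protecting the epithelial sodium channel from ubiquitination, and aldosterone raises it through the mineralocorticoid receptor as well. Its values were 8.36, 8.59 and 8.33 in healthy control, 9.28, 9.47 and 9.39 in control AKI, 8.95, 8.43 and 8.90 in healthy GR-deficient and 8.90, 8.54 and 9.08 in GR-deficient AKI cortex. The control AKI arrays were again the highest 3 of 12, and the remaining groups overlapped their neighbours. AKI raised it 1.94-fold in control mice (0.95 ± 0.16, adjusted p = 0.000264), with 0.075 ± 0.16 in GR-deficient mice (adjusted p = 0.853). The genotype difference in AKI was -0.55 ± 0.16 (adjusted p = 0.0263). It was lost without control AKI replicate 2 or 3 or GR-deficient AKI replicate 1 or 2 (-0.66 to -0.40, adjusted p up to 0.14), and the interaction without healthy control replicate 1 or 3, control AKI replicate 2 or GR-deficient AKI replicate 2 (-1.05 to -0.73, adjusted p up to 0.0514).

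Map3k6 encodes a stress-activated MAP kinase kinase kinase, a partner of the apoptosis kinase ASK. It read 6.81, 6.86 and 7.05 in healthy control, 8.62, 9.06 and 8.90 in control AKI, 7.06, 7.10 and 7.01 in healthy GR-deficient and 7.57, 7.28 and 7.30 in GR-deficient AKI cortex. The order control AKI, GR-deficient AKI and the 2 healthy groups had no overlap between neighbours except that the healthy groups overlapped each other. The increase in control mice was 1.95 ± 0.13 (adjusted p = 6.88e-08) and the value in GR-deficient mice 0.33 ± 0.13 (1.25-fold, adjusted p = 0.18). In AKI the gene was 2.78-fold lower in GR-deficient cortex (-1.48 ± 0.13, adjusted p = 3.75e-06). These calls, the average genotype difference and the interaction passed in every fit without 1 array.

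Zbtb16 is the transcription factor of the set, a BTB zinc finger protein also known as PLZF. Its values were 7.19, 7.85 and 7.81 in healthy control, 8.20, 8.67 and 9.07 in control AKI, 7.81, 8.42 and 8.55 in healthy GR-deficient and 7.39, 7.48 and 7.16 in GR-deficient AKI cortex. Within control mice the AKI arrays were all higher than the healthy ones, and within GR-deficient mice all lower. The change was 1.03 ± 0.23 in control mice (adjusted p = 0.00346) and -0.91 ± 0.23 in GR-deficient mice, and the genotype difference in AKI was -1.30 ± 0.23 (2.46-fold lower, adjusted p = 0.00127). The increase in control mice and the genotype difference passed without any 1 array. The decrease in GR-deficient mice (adjusted p = 0.0396) passed in only 1 of 6 such fits.

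The 8 genes thus fell into several patterns, which were sorted after their values were seen and carry no test of their own. Map3k6, Sgk1 and Nfkbia were highest in control AKI cortex, whose 3 arrays lay above the other 9. How many of all genes set 3 arrays apart from the other 9 was not counted. Between the compared groups alone, arrays did not overlap for 39.6% of all genes for AKI in control mice. The share was 32.8% for GR deficiency in AKI. Fkbp5 and Zbtb16 had measured AKI differences of opposite sign in the 2 genotypes. Dusp1, Errfi1 and Fkbp5 had lower means in GR-deficient mice in both conditions, and Tsc22d3 and Dusp1 had lower means after AKI in both genotypes, so the patterns share genes.

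The genes closest to each target in profile were found as those with the smallest root mean square (RMS) difference in log2 values over the 12 arrays, after each gene was centred on its own mean. Map3k6 ran with Pold4, Epha2 and Litaf (RMS difference 0.15 to 0.17, where the RMS of Map3k6 about its own mean was 0.78). Nfkbia ran with Hars, Pgam5 and Ppp4c (0.071 to 0.076, own RMS 0.29), Sgk1 with Klf4, Klrg2 and Ehbp1l1 (0.13 to 0.14, own RMS 0.39) and Errfi1 with Frmd4b, Uhrf1bp1l and Mlxipl (0.12 to 0.14, own RMS 0.34). For Tsc22d3 the nearest were Mboat2, Inpp1 and Khdrbs3 (0.11 to 0.12, own RMS 0.28) and for Dusp1 Foxred2, Gusb and Pcdh17 (0.24 to 0.27, own RMS 0.50). Fkbp5 (Popdc3, B4galt5 and Acnat2, 0.35 to 0.38, own RMS 0.67) and Zbtb16 (Defb1, Saa2 and Tacc2, 0.37 to 0.40, own RMS 0.59) had no gene that close. None of the 8 targets was among the 3 nearest genes of another.

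Other listed GR targets moved in both directions. Their counts can be set beside the shares of all genes given above for each comparison. Of 29 measured genes, 11 rose and 10 fell with AKI in control mice. Pdk4, a kinase that restrains glucose oxidation (3.58 ± 0.25), and the metallothioneins Mt2 (2.84 ± 0.17) and Mt1 (1.92 ± 0.14) rose, and Usp2, a deubiquitinase (-2.58 ± 0.14), fell. In GR-deficient mice 6 rose, among them Mt2 (1.42), Pdk4 (1.69) and Mt1 (0.72), and 1 fell, Klf15 (-0.88). In healthy mice limma called 0 of 29 for genotype, with 5 at an unadjusted p below 0.05, the closest being Usp2 (-0.66, adjusted p = 0.0852), Klf9 (-0.53, 0.179), Lpin1 (-0.82, 0.193) and Irs2 (-0.72, 0.285).

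In AKI, 9 of the 29 were lower in GR-deficient cortex, those with the smallest p being Pdk4 (-1.79 ± 0.25), Mt2 (-1.18 ± 0.17) and Mt1 (-0.95 ± 0.14). Another 5 were higher: Usp2 (1.49 ± 0.14), the gluconeogenic enzyme gene Pck1 (0.98 ± 0.27), the transcription factor gene Klf15 (0.84 ± 0.16), the lipin Lpin1 (0.82 ± 0.23) and the sodium channel subunit Scnn1a (0.54 ± 0.14). Each of these 5 had fallen with AKI in control mice, a comparison that shares the control AKI arrays. The median difference was -0.15 over the 29 genes, beside -0.64 over the 8. The interaction passed for 10 of 29, 6 negative and 4 positive. As the average over both conditions 7 were lower, with Per1 (-0.47), Pdk4 (-0.85) and the growth arrest gene Gadd45g (-0.49) among them, and Usp2 (0.41) was higher.

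**Figure D4:**
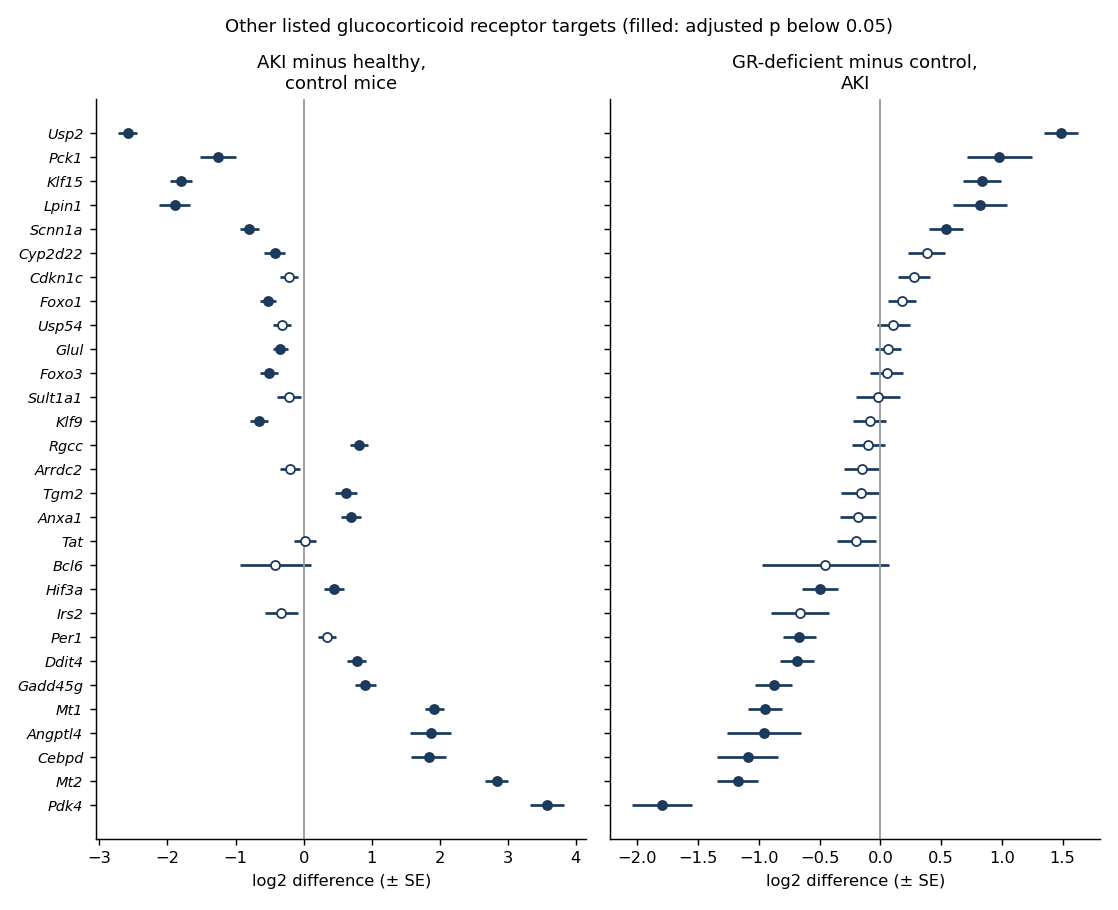
Log2 difference (± SE) of 29 other listed GR targets for AKI in control mice (left) and for GR deficiency in AKI (right), in the order of the right panel, 3 arrays a group. Filled points have an adjusted p below 0.05: 21 on the left, 11 higher and 10 lower, and 14 on the right, 5 higher and 9 lower. Both panels use the control AKI arrays.

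The lists that follow are described by counts, to be read beside the shares of all genes called. For AKI in control mice these were 28.7% (13.6% higher, 15.1% lower). For GR deficiency in AKI they were 17.4% (10% higher, 7.34% lower). For AKI in GR-deficient mice they were 3.29% higher and 1.35% lower. For the interaction they were 7.39% higher and 4.06% lower, and for the average over both conditions 4.54% and 3.92%. Of each list, the genes named are mostly those with the smallest p, which need not have the largest differences. Of 13 chaperones and co-chaperones of the receptor, 4 were called for AKI in control mice: Dnajb1 (1.13), Hsp90aa1 (0.87), Ptges3 (0.59) and Ppid (0.58). This is a share near that of all genes called in either direction (28.7%), but all 4 were higher, as 13.6% of all genes were. In AKI the genotypes differed for 2 of the 13, again a share near that of all genes: Dnajb1 (-0.77 ± 0.14) and Fkbp4 (0.46 ± 0.11), the co-chaperone that favours receptor transport and competes with the Fkbp5 product. Of 12 coregulators, 2 rose and 4 fell with AKI in control mice, among them the coactivator Ppargc1a (-1.50 ± 0.19), the GR inhibitor Hexim1 (-0.80 ± 0.13), the chromatin remodeller Smarca4 (0.55 ± 0.10) and the methyltransferase Ehmt2 (-0.36 ± 0.10). GR-deficient AKI cortex had more Ppargc1a (0.98 ± 0.19) and Hexim1 (0.68 ± 0.13) and less Smarca4 (-0.31 ± 0.10).

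Partners of the individual targets were followed in the same way. Among 13 NF-κB family and feedback genes, 10 rose with AKI in control mice, those with the smallest p being Bcl3 (1.66 ± 0.20), Nfkbiz (1.23 ± 0.16), Nfkb2 (0.98 ± 0.10) and Ikbkg (0.73 ± 0.11), and 2 in GR-deficient mice, Bcl3 (1.32) and Nfkbib (0.51). In AKI 6 of the 13 were lower in GR-deficient cortex, among them Rela (-0.72 ± 0.14) and Nfkb2 (-0.57 ± 0.10). Of 11 other dual-specificity phosphatases 5 rose and 1 fell in control mice. Dusp5 (1.94 ± 0.23), Dusp8 (1.07 ± 0.15) and Dusp10 (0.99 ± 0.14) rose, where Dusp1 fell, and in AKI each was lower in GR-deficient cortex (-1.28, -0.80 and -0.70). Dusp9 alone was higher there (0.69 ± 0.12).

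Of 11 other MAP3 kinases 4 rose and 2 fell in control mice, with Map3k1 at 0.66, Map3k14 at 0.57 ± 0.13, Map3k8 at 0.46 ± 0.10, Map3k3 at 0.45 ± 0.09, Map3k4 at -0.31 and Map3k15, a relative of Map3k6, at -1.52 ± 0.14. In AKI, Map3k15 was higher (0.77 ± 0.14) and Map3k3 (-0.45 ± 0.09) and Map3k8 (-0.43 ± 0.10) lower in GR-deficient cortex. Beside Errfi1, 4 of 13 EGF receptor genes and feedback regulators rose and 3 fell in control mice. Socs3 (2.26 ± 0.21), Spry2 (1.21 ± 0.13) and Spred1 (0.74 ± 0.12) rose and Lrig3 (-0.52 ± 0.11) fell. In AKI 4 of the 13 were lower in GR-deficient cortex, namely Socs3 (-1.46), Spred1 (-0.53), Egfr (-0.48 ± 0.11) and Spry2 (-0.47), and Lrig3 (0.42) was higher. As the average over both conditions 2 were lower, Socs3 (-0.66) and Egfr (-0.45 ± 0.08, adjusted p = 0.00214), as Errfi1 was.

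Among 11 measured genes listed as SGK kinases and sodium channel regulation, 7 fell with AKI in control mice. Those with the smallest p were the potassium channel Kcnj1 (-1.61 ± 0.17), Wnk4 (-1.12 ± 0.12), the kinase Sgk2 (-1.28 ± 0.15) and Ndrg2 (-0.86 ± 0.11). In AKI 6 of 11 were higher in GR-deficient cortex, Kcnj1 by 1.61 ± 0.17, and 1 was lower. Of 3 measured relatives of Tsc22d3, 2 rose with AKI in control mice, Tsc22d1 (1.07 ± 0.15) and Tsc22d2 (0.61 ± 0.15), and both were lower in GR-deficient AKI cortex (-0.63 ± 0.15 and -0.61 ± 0.15). The third, Tsc22d4, was called in neither comparison (0.12, adjusted p = 0.509, and 0.01, adjusted p = 0.969).

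Immediate early genes, which stress and growth signals induce, were measured alongside. In control mice 17 of 20 rose with AKI, those with the smallest p being Fosl1 (3.89 ± 0.22), Atf3 (3.50 ± 0.31), Klf6 (2.43 ± 0.18) and Btg2 (1.58 ± 0.14), and 4 of 20 rose in GR-deficient mice: Fosl1 (1.48), Myc (1.40), Egr2 (0.91) and Nr4a1 (0.56). In AKI 16 of 20 were lower in GR-deficient cortex, with a median of -0.91, as 6 of the 8 targets were, with a median of -0.64. The interaction was negative and passed for 14 of 20, as for 4.06% of all genes.

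**Figure D5:**
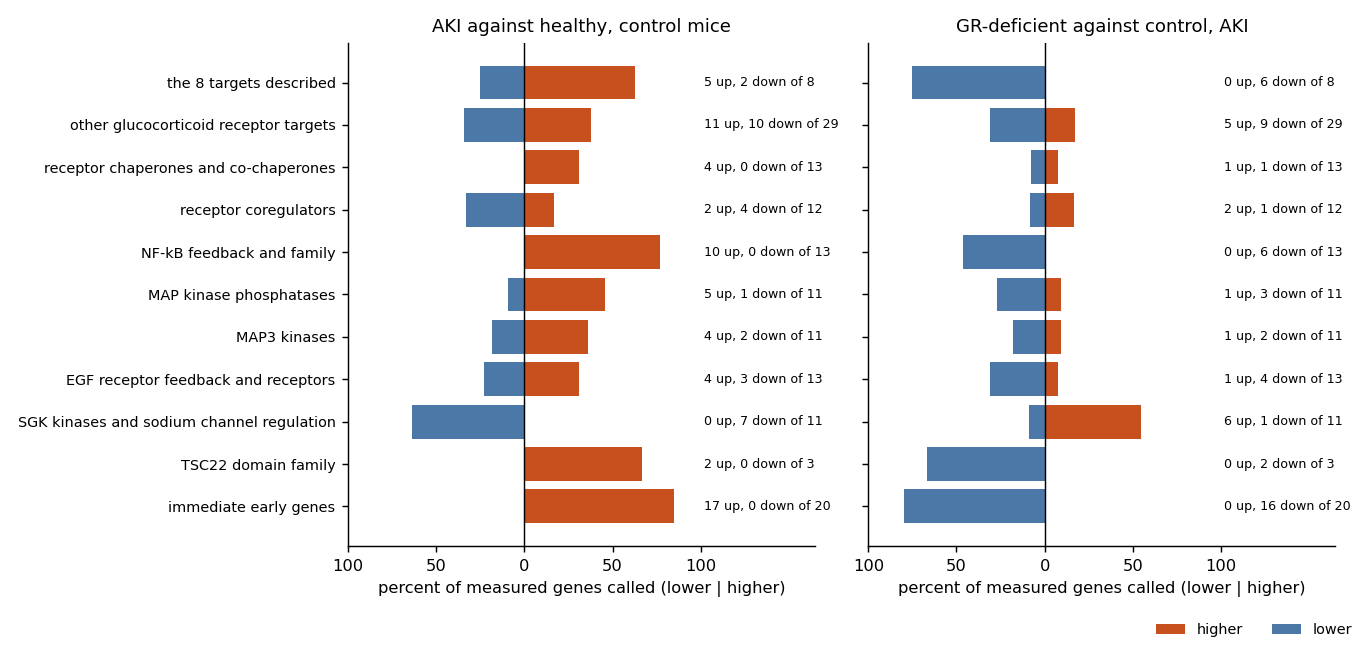
Percent of measured genes called higher (right of 0) or lower (left of 0) in each gene list, for AKI in control mice and for GR deficiency in AKI, with the counts beside each bar. In AKI, 6 of the 8 targets and 16 of 20 immediate early genes were lower in GR-deficient cortex, against 7.34% of all genes.

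Markers of cell types, those of the tubule included, were read in the same comparisons, and their part in the results above was not tested. Of 8 neutrophil genes, 7 rose with AKI in control mice and 7 were lower in GR-deficient AKI cortex. Their summed linear level was 313 to 375 in healthy control, 804 to 1082 in control AKI, 353 to 374 in healthy GR-deficient and 390 to 498 in GR-deficient AKI cortex. Here and below, such a sum is weighted towards the brightest probe sets and serves only to set groups side by side within a list. Of 9 monocyte and macrophage genes 2 rose and 2 fell in control mice, and in AKI 2 were higher and 2 lower in GR-deficient cortex. Cd14 (3.92) and Cd68 (2.85) rose in control mice and were lower in GR-deficient AKI cortex (-2.11 and -1.70). Csf1r (-0.85) and Ly86 (-0.86) fell and were higher there (0.59 and 0.69), and the other 5 were called in neither comparison. The sums, 1880 to 2223, 3634 to 4299, 1853 to 2142 and 1979 to 2790 in the same order of groups, therefore do not describe every gene of the list. All 10 proximal tubule genes fell with AKI in control mice and all 10 were higher in GR-deficient AKI cortex, with sums of 68769 to 72341, 19354 to 25269, 52062 to 69948 and 50458 to 55796. Of 10 genes of the loop, distal tubule and collecting duct, 6 fell in control mice, and in AKI 6 were higher and 1 lower in GR-deficient cortex, with sums of 24756 to 25305, 13699 to 15870, 26077 to 29000 and 21812 to 24299. Of 8 endothelial genes 3 rose and 3 fell in control mice, and in AKI 3 were higher and 2 lower in GR-deficient cortex. Counts for 5 podocyte genes were 1 and 2, then 2 and 1. For 8 fibroblast and mural genes they were 3 and 2, then 0 and 0, and for 6 adrenal genes 2 and 0, then 0 and 1. None of 8 lymphocyte and 6 skeletal muscle genes was called in either comparison. An array gives no true 0, so absence of a marker could not be read.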

How the data were processed

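The log2 expression values are as the authors deposited them. The submitters' processing notes name RMA (robust multichip average), affy and oligo, and for their versions and the genome build nothing is given in the sources used here. The log base is not stated, and the largest value per array (14.73 to 14.90) is in the range of log2. RMA normalizes arrays to each other, so a change shared by all genes would be removed. No further normalization was applied. Of 35556 probe sets, 21789 had exactly 1 gene symbol, 1621 several and 12146 none; the brightest of a gene over 12 arrays was kept (19938 genes). Symbols come from the platform annotation, which can be old.

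The test was limma 3.58.1 under R 4.3.3, with 4 group means in lmFit, then eBayes (8 residual and 6.26 prior degrees of freedom). It was two-sided, with Benjamini-Hochberg adjustment over all genes within each of 6 contrasts. The code of the fit was also run on simulated arrays with independent normal noise. That run checks the code and not the calls made here. The members and gene lists (10 related lists and 10 of cell markers) were chosen with earlier results of these data known. Named genes are the 8 targets, Nr3c1 and up to 4 members of a related list with the smallest p in a contrast. Also named are the members of some counts of 5 or fewer and some further list members seen in another contrast. The 3 genes nearest to each target (predicted genes and clone names skipped) are named as well. The number of arrays limits the precision. Alternatives were quantile normalization, centring on array medians, only genes above the median level of 7.06 (8 of 8 targets), a fit of the compared groups alone, array weights, the mean of a gene's probe sets, the replicate number as a block and leaving out each array.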

Additional observations from a re-analysis of the deposited data

Results flagged for a closer look

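The AKI response differed between the genotypes by the interaction test for 5 of the 8 targets, where 11.5% of all genes passed. The response of GR-deficient mice minus that of control mice was -1.94 for Zbtb16, -1.63 for Map3k6, -1.40 for Fkbp5, -0.88 for Sgk1 and -0.63 for Nfkbia on the log2 scale. For Zbtb16 every control AKI array lay above every healthy control array, and every GR-deficient AKI array below every healthy GR-deficient array. Its decrease in GR-deficient mice was called in only 1 of 6 fits without 1 array. The Fkbp5 groups overlapped in control mice. Groups of 3 arrays were not tested for single outlying values.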

How the results depend on the processing

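In AKI, GR deficiency lowered 4 to 6 of the 8 targets when 1 array was left out, and the average over conditions 3 to 4. The targets called for AKI in control mice ranged from 4 to 6, for the interaction from 2 to 5 and for AKI in GR-deficient mice from 0 to 1. Centring arrays on their median gave 0 targets for AKI in GR-deficient mice, array weights 3, and leaving out both arrays that stood apart, chosen after seeing the data, 2. In healthy mice 1 target (Dusp1) was called for genotype after centring or with only genes above the median level, and 2 (Dusp1 and Zbtb16) with array weights. With array weights 9648 of all genes were called for AKI in control mice and 3196 in GR-deficient ones. The genotype comparison then gave 301 in healthy cortex, 7000 after AKI and 4355 as the average, and the interaction gave 4905. Only genes above the median level gave 1419 for AKI in GR-deficient mice and 74 for genotype in healthy cortex, where quantile normalization gave 53 and a fit of the 2 groups alone 14. Without 1 array AKI in GR-deficient mice gave 277 to 920 genes, the genotype comparison 10 to 115 in healthy cortex and 1079 to 1943 as the average. The cause was not tested. Some differences that were not called changed sign. For AKI in GR-deficient mice these were Nfkbia (quantile normalization -0.0019; -0.059 to 0.20 without 1 array), Errfi1 (-0.031 without both arrays; -0.031 to 0.37) and Sgk1 (-0.091 to 0.22). For AKI in control mice it was Errfi1 (-0.054 to 0.11), and for GR deficiency in healthy mice Tsc22d3 (array weights -0.022; without both arrays -0.0083; -0.0083 to 0.26). For the interaction these were Dusp1 (quantile normalization -0.017; -0.041 to 0.29), Errfi1 (array weights -0.00091; without both arrays -0.11; -0.052 to 0.35) and Tsc22d3 (-0.044 to 0.26). Each gene was then expressed as its difference from the mean of its group. Between same-numbered samples of compared groups these differences correlated at -0.41 to 0.25, so the numbers were not taken as pairs. With the replicate number as a block, 6 targets were called for AKI in control mice and 6 for GR deficiency in AKI, and 5368 and 3104 of all genes.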
